A study of Mus musculus with 6 samples.

Results

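Described here are 10 genes that encode transcription factors of the epidermal lineage, *Trp63*, *Grhl1*, *Grhl2*, *Grhl3*, *Ovol1*, *Klf4*, *Klf5*, *Tfap2a*, *Tfap2c* and *Elf3*, taken by their symbols from the 24982 genes listed in each library. Their RNA was measured by poly(A) RNA-seq in 6 libraries of a pair of C57BL/6 mouse keratinocyte lines. The KSFM-Ca2+ cells came from neonatal skin and were derived and kept in a serum-free medium very low in calcium. The DKSFM cells are descendants of these cells that survived a move to a defined medium with more calcium and were then grown in it. Neither line was treated, and each gave 3 libraries. The deposited names of all DKSFM libraries, but of KSFM-Ca2+ replicate 3 alone in the other line, carry the word combined. That mark is therefore largely tied to the line. The medium, its calcium and the selection of the surviving cells cannot be told apart in this comparison. The labels do not say whether replicates were separate cultures, so the p-values measure only the spread between these libraries, which may be technical.

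Epidermal identity is built by a small network of transcription factors. The p63 protein, encoded by *Trp63*, commits surface ectoderm to a stratified epithelium and keeps the basal layer going, while the AP-2 proteins act beside it early in that commitment. Grainyhead-like proteins bind the genes of cell junctions and of the barrier, Klf4 and Ovol1 act as cells leave the basal layer, Klf5 is best known from dividing basal cells, and Elf3 is an ETS protein of differentiating epithelia.

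The unit is the mean read coverage per base of a gene, so levels are already per length. Levels of different genes are set beside each other on that basis, although how the coverage was computed is not given. The total over all genes was 1601676, 1238411 and 1057750 for the KSFM-Ca2+ libraries, numbered 1 to 3, and 1174348, 1239438 and 1170675 for the DKSFM libraries, and values were normalized between libraries for this reason. They were deposited to 1 decimal, and the rounding step of 0.1 was worth an approximate 2.18 reads for *Ovol1* and 3.28 reads for *Grhl3*, the members with the lowest coverage. Fold changes are DKSFM over KSFM-Ca2+ on the scale of log2(normalized coverage + 0.1), tested with limma over 12409 genes.

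Both lines carried the markers of basal keratinocytes. The summed normalized coverage of *Krt5*, *Krt14*, *Krt15*, *Itga6*, *Itgb4* and *Col17a1* was 18034 to 18478 in the KSFM-Ca2+ libraries and 39691 to 43925 in the DKSFM libraries, with *Krt14* the most abundant, and 5 of the 6 genes were higher in the DKSFM cells (35.3% of all tested genes) and 1, *Itgb4*, was lower (37.3%). Most markers of other cells of the skin were too low to be tested. Of 6 fibroblast markers, *Col1a1*, *Col1a2*, *Col3a1*, *Dcn* and *Lum* were listed at 0 in every library, and the sum, all of it *Pdgfra*, was 1.11, 0.869 and 1.26 in the KSFM-Ca2+ libraries and 2.27, 2.04 and 2.17 in the DKSFM libraries. Of 6 melanocyte markers, *Dct* and *Tyr* were listed at 0 throughout, while the sum, mostly *Mitf*, was 3.86, 3.86 and 4.48 in the KSFM-Ca2+ libraries and 16.8, 18.2 and 17.9 in the DKSFM libraries. Of 4 endothelial markers, *Cdh5* was listed at 0 and *Pecam1* was the most abundant, with sums of 2.75, 3.09 and 3.22 against 8.04, 8.06 and 7.23. *Pmel* (0.206 to 0.690) and *Tek* (0.0971 to 0.386) were just above 0 in every library, and *Kdr* had 0.0742, 0.0966 and 0 in the KSFM-Ca2+ libraries and 0.206, 0.194 and 0.206 in the DKSFM libraries. The sum of 5 leukocyte markers, none listed above the rounding step and *Cd3e* at 0, was 0, 0.0966 and 0 in the KSFM-Ca2+ libraries and 0.103, 0.291 and 0.103 in the DKSFM libraries. Of 4 Merkel cell markers, *Atoh1* was listed at 0 and *Sox2* was the most abundant, with sums of 5.42, 5.02 and 3.45 against 8.45, 8.45 and 7.84. Of the markers of other cells that were tested, *Mitf* (log2 fold change 2.30), *Pecam1* (1.41), *Pdgfra* (0.95) and *Sox2* (0.95) were higher in the DKSFM cells and *Isl1* (0.14) did not pass. In the libraries marked as combined, with KSFM-Ca2+ replicate 3 alone for its line, the log2 fold change of *Pdgfra* was 0.73. *Mitf* reached a mean of 17.2 in the DKSFM libraries, above 41.6% of tested genes. The part of other cells in these values was not tested. In bulk RNA, fewer cells of a type and less RNA per cell cannot be told apart, here and in all values that follow.

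All 10 members passed the filter on low values, and the DKSFM cells had more RNA of most of them. At an adjusted p under 0.01, 8 members were higher in the DKSFM cells, where 35.3% of all tested genes were, and 1 member was lower, where 37.3% were, against 72.6% of genes past the threshold in either direction. By at least 2-fold, *Grhl1*, *Klf4* and *Grhl3* were higher, 3 of 10 beside 13.1% of all tested genes. The single member that was lower, *Grhl2*, changed by less than 2-fold, while 10.6% of all tested genes were lower by at least that much. The libraries of the lines did not overlap in any of the 10 members, which was also the case in 83.3% of tested genes. The median log2 fold change of the members was 0.49, and that of all tested genes -0.01. The differences among the members in how far they changed were not tested and are given side by side with their standard errors.

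**Figure D1:**
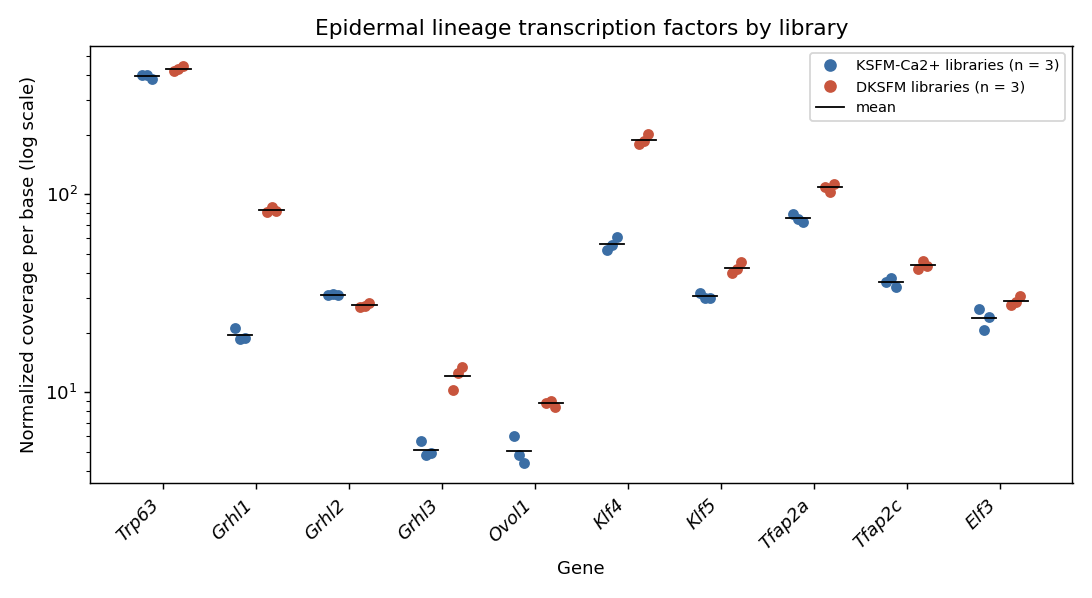
Normalized coverage per base of each member (log axis), with a point for each of the 3 KSFM-Ca2+ and 3 DKSFM libraries and a line at the mean. *Trp63* lies between 380.4 and 445 in all libraries, while *Grhl1* and *Klf4* show a wide gap between the lines.

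**Figure D2:**
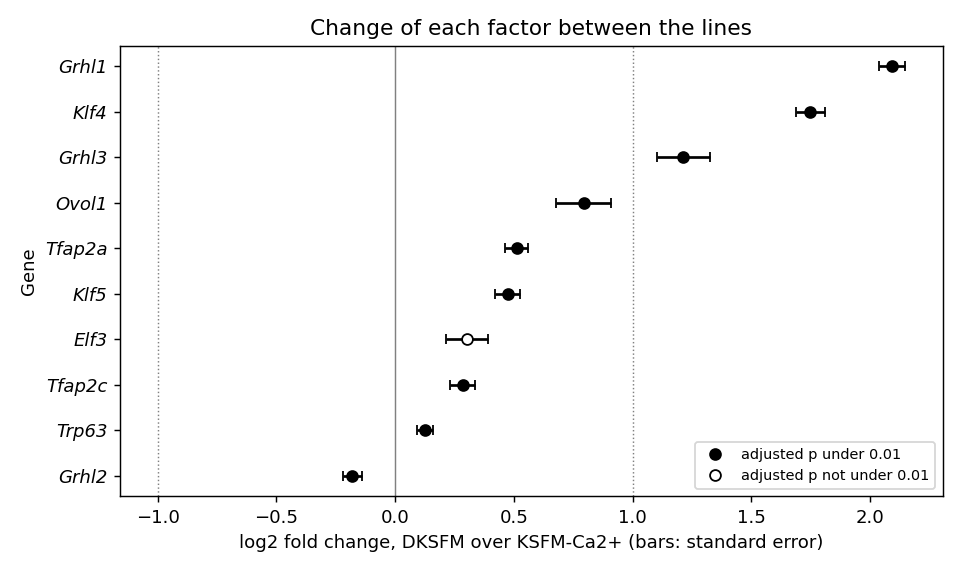
Log2 fold change of each member between the lines, with bars for the standard error of the limma fit and dotted lines at a 2-fold change. The points run from -0.18 for *Grhl2* to 2.09 for *Grhl1*, and the open point is *Elf3*.

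*Trp63* (chromosome 16 from 25683763 to 25892102, GRCm38) stood far above the other members in both lines. Its normalized coverage was 402, 401 and 380.4 in the KSFM-Ca2+ libraries and 420.0, 427 and 445 in the DKSFM libraries. Every DKSFM library was the higher, by a small margin. Coverage per gene does not separate the isoforms of p63, and the gene model *Gm27005*, which overlaps *Trp63* on the same strand, was not analysed here. The log2 fold change was 0.13 (standard error 0.03, adjusted p = 0.00828 in limma), and this call was lost on leaving out any one of the 6 libraries, where the adjusted p ran from 0.0113 to 0.0316. It was also lost with library totals as the scaling (adjusted p = 0.0186), without the intensity trend (0.0316) and without the filter (0.0112). The replicate number as a block lost it as well (0.0213), within a range of 0.00465 to 0.0316 over all alternatives. In the libraries marked as combined, with KSFM-Ca2+ replicate 3 alone for its line, the log2 fold change was 0.18. The 133 other tested genes from 20 to 40 Mb of the chromosome, a fixed window that holds *Trp63*, had a median log2 fold change of 0.12 above that of all tested genes, about the size of the change of *Trp63* itself.

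The grainyhead-like genes went separate ways. *Grhl1* (chromosome 12 from 24572283 to 24617391), whose protein binds genes of desmosomal cadherins, had 21.0, 18.6 and 18.7 in the KSFM-Ca2+ libraries and 81.3, 85.9 and 82.5 in the DKSFM libraries. The DKSFM libraries were all high and close together, with a mean of 83.2 ± 2.38 (SD, n = 3) against 19.5 ± 1.34. This was the largest change among the members, with a log2 fold change of 2.09 (standard error 0.05, adjusted p = 1.24e-08 in limma). *Grhl3* (chromosome 4 from 135541888 to 135573630), which is needed for barrier formation and closure of epidermal wounds, had 5.64, 4.83 and 4.94 in the KSFM-Ca2+ libraries and 10.3, 12.5 and 13.4 in the DKSFM libraries. It was the least covered of the family in both lines, and the DKSFM libraries were spread more widely than the KSFM-Ca2+ libraries without reaching them. The log2 fold change of *Grhl3* was 1.21 (standard error 0.11, adjusted p = 1.61e-05).

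*Grhl2* (chromosome 15 from 37233036 to 37363569), known for its hold on epithelial junction genes, had 30.8, 31.4 and 31.2 in the KSFM-Ca2+ libraries and 26.8, 27.3 and 28.3 in the DKSFM libraries. All DKSFM libraries lay a little under all KSFM-Ca2+ libraries, which no other member showed. The log2 fold change was -0.18 (standard error 0.04, adjusted p = 0.00330), and the fall was close to the threshold. The adjusted p was 0.01005 without KSFM-Ca2+ replicate 1, 0.0157 without KSFM-Ca2+ replicate 2, 0.0134 without DKSFM replicate 1 and 0.0103 without DKSFM replicate 2, each no longer past the threshold. With the combined libraries set apart, the range over the alternatives was 0.00299 to 0.0157. In the combined libraries, with KSFM-Ca2+ replicate 3 alone for its line, the log2 fold change was -0.18. The direction was the same under each scaling tried.

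The leading gene of the family differed between the lines. In the listed coverage, whose scaling cancels within a library, *Grhl2* made up 53.6%, 57.2% and 56.8% of the sum of the grainyhead-like genes in the KSFM-Ca2+ libraries and 22.6%, 21.7% and 22.8% in the DKSFM libraries. *Grhl1* took 36.6%, 34.0% and 34.2% in the KSFM-Ca2+ libraries and 68.7%, 68.3% and 66.4% in the DKSFM libraries. *Grhl1* was thus under *Grhl2* in every KSFM-Ca2+ library and over it in every DKSFM library, with ratios of 0.594 to 0.682 in the former and 2.92 to 3.15 in the latter. The share of *Grhl3* stayed near 9.21% ± 0.536 in the KSFM-Ca2+ libraries and 9.83% ± 1.06 in the DKSFM libraries (SD, n = 3), and its libraries overlapped. Summed over *Grhl1*, *Grhl2* and *Grhl3*, normalized coverage was 55.7 ± 1.5 in the KSFM-Ca2+ libraries and 123 ± 3.87 in the DKSFM libraries, a ratio of 2.20.

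**Figure D3:**
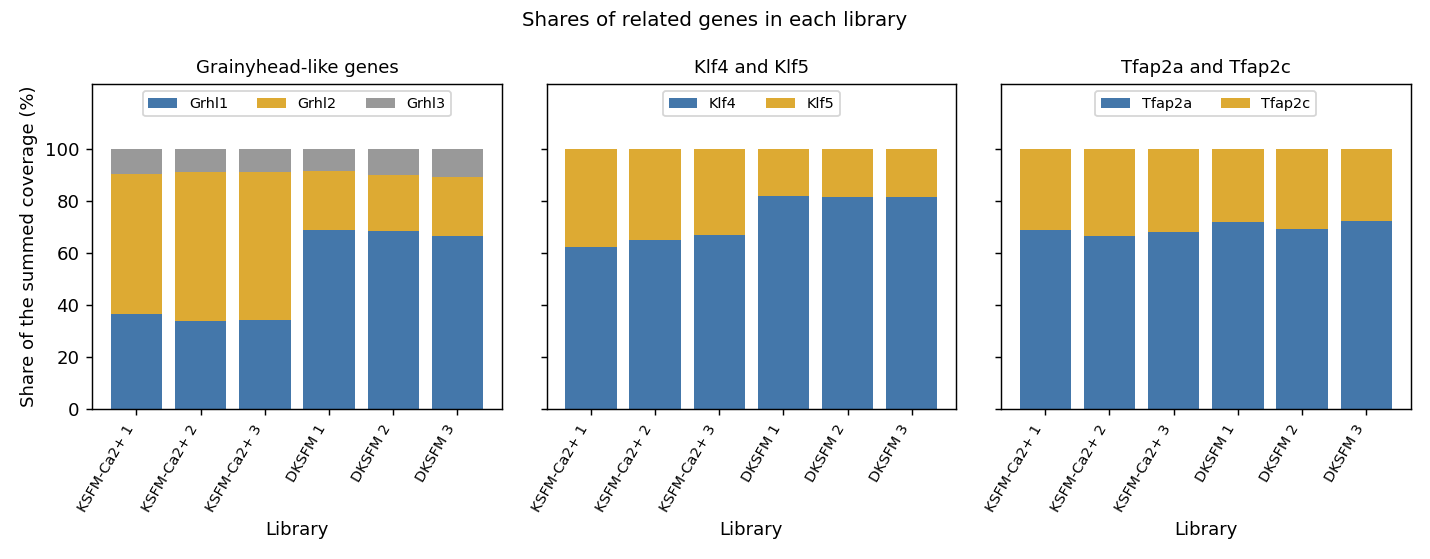
Share of each gene in the summed listed coverage of its family members in each library, in percent, for the grainyhead-like genes, *Klf4* with *Klf5*, and *Tfap2a* with *Tfap2c*. *Grhl2* holds the largest share in the KSFM-Ca2+ libraries and *Grhl1* in the DKSFM libraries.

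The promoters of *Grhl1*, *Grhl3* and *Klf4* are shown because these were the members that rose by at least 2-fold. RefSeq promoters (GRCm38.p6, 250 bases before to 50 after the start) were at hand for 5 of the 10 members, *Grhl1*, *Grhl3*, *Klf4*, *Tfap2a* and *Elf3*, as 7 sequences, since *Grhl1* and *Tfap2a* have a second start. On both strands they were searched for the grainyhead word AACNNGTT, which 4.20% of the 32851 promoters in the table hold, the palindrome GCCNNNGGC of AP-2 proteins (16.6%), CACCC of Klf proteins (57.5%) and AGGAAG of ETS proteins (35.4%). Capitals mark the matches, none of which overlap in the sequences shown. The *Grhl1* promoter shown, at the first of its starts, lies at chr12:24572037-24572336 on the plus strand, that of *Grhl3* at chr4:135573583-135573882 on the minus strand and that of *Klf4* at chr4:55532426-55532725 on the minus strand, all written 5′ to 3′ along the gene.
Grhl1: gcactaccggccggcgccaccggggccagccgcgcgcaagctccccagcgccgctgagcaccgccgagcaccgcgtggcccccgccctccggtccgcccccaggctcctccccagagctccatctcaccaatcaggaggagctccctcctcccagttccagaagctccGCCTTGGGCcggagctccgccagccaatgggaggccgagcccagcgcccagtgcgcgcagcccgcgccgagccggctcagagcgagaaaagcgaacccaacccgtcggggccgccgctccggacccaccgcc
Grhl3: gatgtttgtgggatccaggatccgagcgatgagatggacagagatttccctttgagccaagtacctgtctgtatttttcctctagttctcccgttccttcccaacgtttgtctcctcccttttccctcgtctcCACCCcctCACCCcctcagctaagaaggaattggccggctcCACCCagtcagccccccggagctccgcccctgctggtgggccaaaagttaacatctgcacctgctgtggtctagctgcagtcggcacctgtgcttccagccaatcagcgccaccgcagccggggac
Klf4: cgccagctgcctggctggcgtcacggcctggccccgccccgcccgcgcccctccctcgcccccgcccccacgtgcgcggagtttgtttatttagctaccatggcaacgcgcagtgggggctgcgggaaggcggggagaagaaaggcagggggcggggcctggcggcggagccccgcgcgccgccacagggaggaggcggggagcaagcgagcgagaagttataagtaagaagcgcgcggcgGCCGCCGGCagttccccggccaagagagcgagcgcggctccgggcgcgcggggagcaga

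*Grhl1* and *Klf4* each held 1 match to the AP-2 word, beginning at -82 in *Grhl1* and at -9 in *Klf4*, counted from the start site. *Grhl3* held 3 matches to CACCC, at -117, -109 and -76, and no AP-2 word. The promoter at the other *Grhl1* start (chr12:24580469-24580768, plus strand, 51.3% G and C) held no AP-2 word, 2 matches to CACCC and 1 to AGGAAG, and which start the cells used was not measured. The grainyhead word was in none of the 7 promoters of the members. G and C made up 75.3% of the *Grhl1* promoter shown, 74.3% of that of *Klf4* and 58.3% of that of *Grhl3*. A match is a run of letters only, and no binding was measured here.

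Of the Krüppel-like members, *Klf4* moved far more than *Klf5*. *Klf4* (chromosome 4 from 55527143 to 55532466), which the epidermis needs to form its permeability barrier, had 52.1, 55.5 and 60.8 in the KSFM-Ca2+ libraries and 180.0, 186 and 200.3 in the DKSFM libraries. Every DKSFM library was far above the KSFM-Ca2+ libraries, and its level passed from above 69.5% to above 90.5% of tested genes. The log2 fold change was 1.75 (standard error 0.06, adjusted p = 6.25e-08 in limma). *Klf5* (chromosome 14 from 99298691 to 99315036) had 31.7, 29.9 and 30.001 in the KSFM-Ca2+ libraries and 40.1, 42.0 and 45.4 in the DKSFM libraries. Its DKSFM libraries were also all the higher, by a smaller step, with a log2 fold change of 0.47 (standard error 0.05, adjusted p = 6.02e-05). *Klf4* was over *Klf5* in every library, by a ratio of 1.64, 1.85 and 2.03 in the KSFM-Ca2+ libraries and 4.49, 4.42 and 4.41 in the DKSFM libraries. The ratio was nearly the same in the DKSFM libraries and did not overlap between the lines.

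Both AP-2 genes rose modestly. *Tfap2a* (chromosome 13 from 40715302 to 40738376), which encodes AP-2 alpha, had 79.7, 75.3 and 72.4 in the KSFM-Ca2+ libraries and 109, 103 and 113 in the DKSFM libraries. *Tfap2c* (chromosome 2 from 172549593 to 172558622), which encodes AP-2 gamma, had 36.0, 37.9 and 34.1 in the KSFM-Ca2+ libraries and 42.0, 46.0 and 43.6 in the DKSFM libraries. In both genes all DKSFM libraries were the higher, and the gap was wider in *Tfap2a*. The log2 fold change was 0.51 for *Tfap2a* (standard error 0.05, adjusted p = 1.90e-05 in limma) and 0.28 for *Tfap2c* (standard error 0.05, adjusted p = 0.00109). *Tfap2a* was the more abundant in every library, at 66.6% to 68.9% of the sum of both in the KSFM-Ca2+ libraries and 69.1% to 72.2% in the DKSFM libraries. The balance between the AP-2 genes therefore moved little beside that between *Grhl1* and *Grhl2*.

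*Ovol1* (chromosome 19 from 5549136 to 5560646), a zinc finger repressor that restrains growth of epidermal progenitors, was scarce. It had 6.01, 4.83 and 4.37 in the KSFM-Ca2+ libraries and 8.86, 9.03 and 8.46 in the DKSFM libraries. The DKSFM libraries were close together and all above the more widely spread KSFM-Ca2+ libraries. Its log2 fold change of 0.79 (standard error 0.12, adjusted p = 2.85e-04 in limma) fell short of 2-fold.

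*Elf3* (chromosome 1 from 135253575 to 135258568) was the member that did not pass the threshold. It had 26.4, 20.6 and 23.9 in the KSFM-Ca2+ libraries and 27.7, 28.7 and 30.8 in the DKSFM libraries. The DKSFM libraries lay above the KSFM-Ca2+ libraries, but KSFM-Ca2+ replicate 1 came close to them. The log2 fold change was 0.30 (standard error 0.09, adjusted p = 0.0134 in limma). The gene passed without KSFM-Ca2+ replicate 1 (adjusted p = 0.00360, log2 fold change 0.39) and with a filter on every library (0.00820), within a range of 0.00360 to 0.0542 over all alternatives.

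Ranked by level, the members changed places between the lines. In the KSFM-Ca2+ libraries the mean normalized coverage fell from *Trp63* (394 ± 12.1, SD, n = 3) through *Tfap2a* (75.8 ± 3.67), *Klf4* (56.1 ± 4.39), *Tfap2c* (36.0 ± 1.86), *Grhl2* (31.1 ± 0.294), *Klf5* (30.5 ± 0.994), *Elf3* (23.6 ± 2.94) and *Grhl1* (19.5 ± 1.34) to *Grhl3* (5.14 ± 0.439) and *Ovol1* (5.07 ± 0.848). Libraries of the neighbours *Grhl2* and *Klf5*, *Elf3* and *Grhl1*, and *Grhl3* and *Ovol1* overlapped. Within each of these libraries, however, *Elf3* was above *Grhl1*, whereas the order of *Grhl2* and *Klf5*, and of *Grhl3* and *Ovol1*, was not the same in every library. In the DKSFM libraries *Trp63* (431 ± 12.9) was followed by *Klf4* (189 ± 10.5), *Tfap2a* (108 ± 5.19), *Grhl1* (83.2 ± 2.38), *Tfap2c* (43.8 ± 1.97), *Klf5* (42.5 ± 2.71), *Elf3* (29.0 ± 1.56), *Grhl2* (27.5 ± 0.760), *Grhl3* (12.1 ± 1.61) and *Ovol1* (8.79 ± 0.292). Here *Tfap2c* overlapped with *Klf5*, in an order that differed between libraries, and *Elf3* overlapped with *Grhl2* but was above it within each library. *Grhl1* went from place 8 to place 4 and *Klf4* from place 3 to place 2, while *Grhl2* went from place 5 to place 8.

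The members were also set beside the other genes of their stretch of chromosome, in fixed windows of 20 Mb that are not centred on the member, so that *Klf5* and *Tfap2a* lie close to an edge. Set against the median of all tested genes, that of the other genes in the same window stood at a log2 fold change of 0.22 for *Grhl1*, 0.14 for *Klf4* and 0.12 for *Grhl3*, small beside the changes of these genes. In the window of *Grhl2*, which was lower, it stood at 0.15. In that of *Elf3* it stood at -0.46, over 93 genes, beside a log2 fold change of 0.30 for *Elf3* itself. The windows of *Ovol1*, *Tfap2a* and *Tfap2c* were within -0.09 to 0.01, and that of *Klf5* held only 7 other tested genes, with a median of -0.71. Whether any of these windows departs from the rest of the genome was not tested.

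Among 31 relatives of the members in the p53, grainyhead, Ovo, Krüppel-like, AP-2 and ELF families, 20 passed the filter, of which 9 were higher, beside 35.3% of all tested genes, 4 were lower, beside 37.3%, and 7 did not pass the threshold. Their median log2 fold change was 0.17. Without KSFM-Ca2+ replicate 1, 2 of them were lower in place of 4, as *Tfcp2* (adjusted p = 0.0109) and *Klf7* (0.0148) were no longer past the threshold. Nor was *Tfcp2* past it without DKSFM replicate 1 (0.0110) or DKSFM replicate 2 (0.0130), within a range of 0.00110 to 0.0130 with the combined libraries set apart. In the combined libraries, with KSFM-Ca2+ replicate 3 alone for its line, the log2 fold change of *Tfcp2* was -0.27. In the p53 family the relatives of *Trp63* moved in opposite directions. *Trp73*, which encodes p73, had 0.0742, 0.290 and 0.115 in the KSFM-Ca2+ libraries, close to the rounding step, and 22.4, 21.9 and 22.7 in the DKSFM libraries. It passed the filter only through the DKSFM libraries, so no p-value is given for it. It was all but missing in one line and moderately covered in the other, where *Trp63* still exceeded it by a ratio of 18.8 to 19.6. *Trp53*, the tumour suppressor gene, had 228, 230.4 and 238 in the KSFM-Ca2+ libraries and 139, 144 and 152 in the DKSFM libraries. It was the lower in every DKSFM library (log2 fold change -0.68 with a standard error of 0.04, adjusted p = 8.09e-07 in limma). The ratio of *Trp63* to *Trp53* was 1.60 to 1.76 in the KSFM-Ca2+ libraries and 2.93 to 3.03 in the DKSFM libraries.

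Relatives of the other members were as varied. Of the Krüppel-like relatives, *Klf15* was listed at 0 in every KSFM-Ca2+ library and had 13.5, 14.4 and 13.0 in the DKSFM libraries. It passed the filter only through the DKSFM libraries, so no p-value is given for it. *Klf11* (log2 fold change 1.30) and *Klf13* (1.04) were higher too. In all, 10 of 15 such Krüppel-like relatives were tested. Of these, 5 were higher (35.3% of all tested genes), 4 did not pass and 1 was lower (37.3%). The lower gene, *Klf7* (log2 fold change -0.78, adjusted p = 0.00298 in limma), was named after its values were seen. That call of *Klf7* was lost without KSFM-Ca2+ replicate 1 (adjusted p = 0.0148) and without KSFM-Ca2+ replicate 3 (0.0156), within a range of 4.21e-04 to 0.0156 over all alternatives. In the combined libraries, with KSFM-Ca2+ replicate 3 alone for its line, the log2 fold change of *Klf7* was -0.91. Of the CP2 genes related to *Grhl1*, *Ubp1* was higher (log2 fold change 0.82), *Tfcp2* was lower (-0.42), and *Tfcp2l1* was near the rounding step in the KSFM-Ca2+ libraries and at 0.824 to 0.929 in the DKSFM libraries. *Ovol2*, the relative of *Ovol1*, had 32.6, 31.4 and 33.9 in the KSFM-Ca2+ libraries and 35.9, 35.2 and 34.7 in the DKSFM libraries, not past the threshold (adjusted p = 0.0400). *Ovol2* exceeded *Ovol1* in every library, and the ratio of *Ovol1* to *Ovol2* was 0.129 to 0.185 in the KSFM-Ca2+ libraries and 0.244 to 0.257 in the DKSFM libraries. *Ovol3* and the AP-2 genes *Tfap2b*, *Tfap2d* and *Tfap2e* were listed at 0 in all libraries, which left *Tfap2a* and *Tfap2c* as the AP-2 genes with coverage. *Ehf*, an ETS gene of epithelia close to *Elf3*, had 9.50, 8.11 and 7.47 in the KSFM-Ca2+ libraries and 37.2, 41.4 and 39.3 in the DKSFM libraries, again without overlap (log2 fold change 2.23, standard error 0.09, adjusted p = 1.18e-07). *Ehf* was thus under *Elf3* in every KSFM-Ca2+ library (ratio 0.313 to 0.394) and over it in every DKSFM library (1.28 to 1.44). *Elf4* was lower (log2 fold change -0.50), the values of *Elf1* (-0.04) and *Elf2* (0.06) did not pass, and *Elf5* and *Spdef* were at or near 0.

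**Figure D4:**
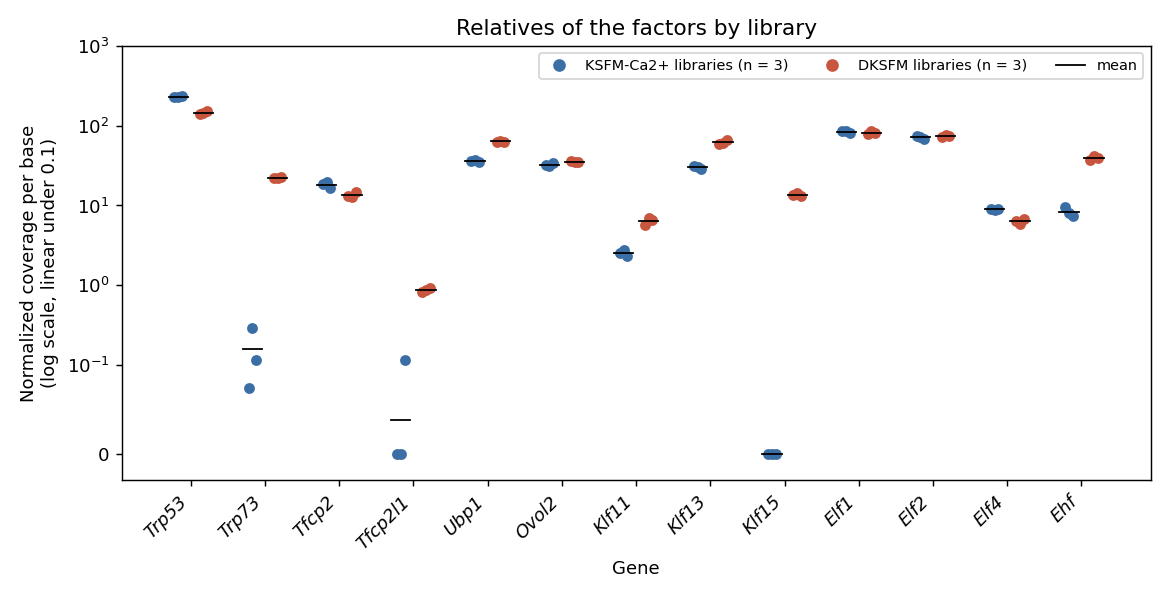
Normalized coverage per base of named relatives of the members (log axis, linear under 0.1), with a point for each library and a line at the mean of 3. *Trp73* and *Klf15* are near or at 0 in the KSFM-Ca2+ libraries only, and *Ehf* is higher in the DKSFM libraries.

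The likeness of the members to 28 other epidermal transcription factors was measured as the Euclidean distance between the 6 log2 values of each gene, centred on its own mean, with a smaller distance for more alike genes. *Grhl1* was nearest to *Prdm1* (0.2997) and *Vdr* (0.308), and *Klf4* to *Vdr* (0.385) and *Casz1* (0.403). *Grhl3* was nearest to *Tcf7l1* (0.430), and *Ovol1* to *Rxra* (0.234) and *Hr* (0.294). *Runx1* was the nearest to *Klf5* (0.0951), *Tfap2a* (0.139), *Tfap2c* (0.309) and *Elf3* (0.307), with *Myc* next for *Klf5* (0.180) and *Tfap2a* (0.162), *Bnc1* for *Tfap2c* (0.387) and *Id3* for *Elf3* (0.348). *Trp63* was nearest to *Bnc1* (0.226) and *Id3* (0.304), genes not past the threshold. With only 2 lines, this distance mostly restates how close the fold changes are.

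Most of these other epidermal factors were higher in the DKSFM cells as well. Of 31 listed, 28 were tested, 21 were higher (35.3% of all tested genes), 15 of them by at least 2-fold (13.1%), 2 were lower (37.3%) and 5 did not pass, with a median log2 fold change of 1.21. *Barx2*, a homeobox gene, was listed at 0 in every KSFM-Ca2+ library and had 89.8, 89.0 and 95.7 in the DKSFM libraries, a little above the level of *Grhl1* there. It passed the filter only through the DKSFM libraries, so no p-value is given for it. *Trps1* (log2 fold change 3.54), *Id2* (3.39) and *Pou3f1* (2.65) followed by size among genes averaging 2 or more in the DKSFM libraries, and *Satb1*, a chromatin organizer downstream of p63 in epidermis, was lower (-3.46). *Satb1* was near the rounding step in the DKSFM libraries (listed at 0.5, 0.4 and 0.1), and *Trps1*, *Id2* and *Pou3f1* were low in the KSFM-Ca2+ libraries. These values therefore depend on the pseudocount. At a pseudocount of 1, *Satb1* was at -1.99, *Trps1* at 2.87, *Id2* at 3.09 and *Pou3f1* at 2.155, so the order by size changed as well. *Cebpa* (2.64), *Hopx* (2.48) and *Zfp750* (2.38), factors of epidermal differentiation, were chosen after their values were seen. *Zfp750*, a p63 target that acts with Klf4, had 7.57, 6.57 and 6.21 in the KSFM-Ca2+ libraries and 33.4, 35.6 and 37.8 in the DKSFM libraries, beside a log2 fold change of 1.75 for *Klf4*.

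Genes known as targets of the members moved in both directions. Of 13 p63 targets, 7 were higher (35.3% of all tested genes were), 5 were lower (37.3% of all tested genes) and 1 did not pass, with a median log2 fold change of 0.36 beside 0.13 for *Trp63*. The keratin gene *Krt14* (1.31), *Perp* of the desmosome (1.62) and *Fgfr2* (2.73) were higher, and *Fras1* was listed at 0 in the KSFM-Ca2+ libraries and had 2.88, 2.72 and 2.68 in the DKSFM libraries, while the integrin gene *Itga3* was lower (-1.99). Of 9 grainyhead targets, 6 were higher and 3 lower, beside the same shares of all tested genes, with a median of 0.84. *Dsg1b*, a desmosomal cadherin gene of a group that Grhl1 binds and whose near-identical copies could share reads, had 0.0742, 0.0966 and 0 in the KSFM-Ca2+ libraries and 20.3, 21.5 and 21.9 in the DKSFM libraries. It was near the rounding step in the KSFM-Ca2+ libraries only. The gene passed the filter through the DKSFM libraries alone, so no p-value is given for it. A link to the level of *Grhl1* was not tested. *Tgm1* (2.26), a target of Grhl3, and *Arhgef19* (1.89) were higher as well, whereas *Cldn4* (-1.03) and *Epcam* (-1.51), junction genes bound by Grhl2, were lower. *Rab25* (0.84) and *Esrp1* (0.17), also bound by Grhl2, were higher, so that its targets here went both ways. *Cdh1*, a further one, changed little (log2 fold change -0.13, standard error 0.03, adjusted p = 0.00300 in limma). That call was lost without KSFM-Ca2+ replicate 1 (adjusted p = 0.0130), KSFM-Ca2+ replicate 3 (0.0115), DKSFM replicate 1 (0.0135) or DKSFM replicate 2 (0.0106), and without the trend (0.0128). With the combined libraries set apart, the range was 0.00181 to 0.0135. In the combined libraries, with KSFM-Ca2+ replicate 3 alone for its line, the log2 fold change of *Cdh1* was -0.15. *Rab25*, *Esrp1* and *Cdh1* were chosen after their values were seen.

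**Figure D5:**
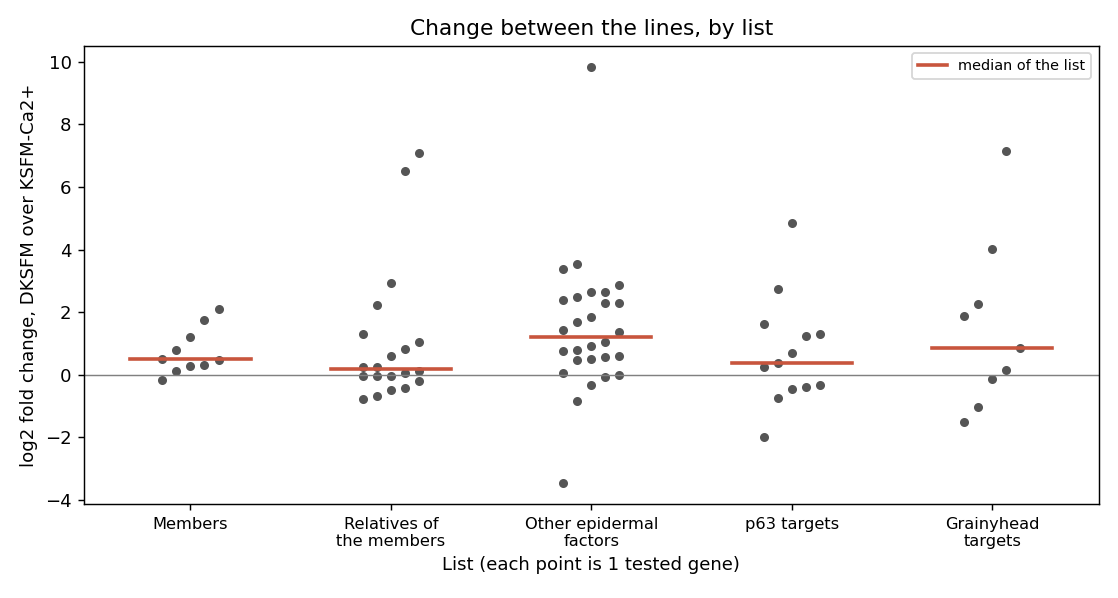
Log2 fold change of each tested gene of the members, their relatives, other epidermal factors, p63 targets and grainyhead targets, with a line at the median of each list. Medians are 0.49, 0.17, 1.21, 0.36 and 0.84, and the values of genes listed at 0 in the KSFM-Ca2+ libraries, such as *Barx2* and *Klf15*, or near it in either line, depend on the pseudocount.

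Targets of *Elf3* and genes repressed by *Grhl2* or *Ovol1* complete the lists. Of 3 *Elf3* targets, *Sprr2a3* was higher (log2 fold change 2.004), *Sprr2a1* did not pass (0.73, adjusted p = 0.0206 in limma) and *Tgm3* stayed near the rounding step. Reads of the Sprr2a copies could be shared among them, which makes their values uncertain. Of 6 genes repressed by Grhl2 or Ovol1, 3 were tested and all 3 were higher in the DKSFM cells (35.3% of all tested genes). *Myc* and *Id2*, both repressed by Ovol1, had log2 fold changes of 0.57 and 3.39, in the same direction as *Ovol1* itself (0.79). *Zeb2*, known with *Zeb1* from the loss of epithelial character, had 0.594, 1.26 and 0.575 in the KSFM-Ca2+ libraries and 5.67, 6.22 and 6.09 in the DKSFM libraries, a log2 fold change of 2.82 that was 1.97 at a pseudocount of 1. *Zeb1*, *Vim* and *Cdh2* had under 1 in every library and were not tested. *Cdh2* ran the other way, with 0.445, 0.483 and 0.920 in the KSFM-Ca2+ libraries and 0.206, 0.291 and 0.206 in the DKSFM libraries, while the values of *Zeb1* and *Vim* were the higher in the DKSFM libraries, near the rounding step.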

How the data were processed

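The 6 libraries were grouped by their labels, 3 KSFM-Ca2+ and 3 DKSFM. The deposited signal is the read coverage of each gene averaged over its bases, unscaled and to 1 decimal, which the authors made after aligning poly(A) reads to mm10 with STAR and quantifying with Salmon. How coverage was computed is not given in the sources used here. Since coverage is not a count, the authors' DESeq2 comparison was replaced by limma 3.58.1 in R 4.3.3, two-sided and with an intensity trend. Scaling used an unweighted trimmed mean of M values (30% of M, 5% of A, factors 0.990 to 1.01). Genes were kept at 0.5 or more in at least 3 libraries, and values transformed as log2(value + 0.1). P-values were adjusted by Benjamini-Hochberg over all 12409 tested genes, with thresholds of 0.01 and 2-fold. The procedure was tested on simulated data.

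The members and lists were chosen with earlier results of these data known. All members are named. Some of the genes nearest to *Grhl2* and *Grhl3* are not reported here. From each other list up to 4 genes per direction were named, by largest change among genes past both thresholds, without overlap and averaging 2 or more in the line with more coverage, and any gene of a list of 6 or fewer. Positions are from GENCODE M21 and promoters from RefSeq. Figures were drawn with matplotlib 3.10.9 in Python 3.11.15.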

Additional observations from a re-analysis of the deposited data

How the results depend on the processing

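The alternatives were 2 other scalings, pseudocounts of 0.5 and 1, filtering not at all or on every library, no trend, a replicate block, a threshold of 0.05, each library left out in turn, and only the libraries whose deposited names carry the word combined (KSFM-Ca2+ replicate 3, assumed to vary like the others, and all DKSFM replicates). That last fit has a single KSFM-Ca2+ library. No member changed direction in these 16 fits. *Grhl1*, *Grhl3*, *Ovol1*, *Klf4*, *Klf5*, *Tfap2a* and *Tfap2c* stayed past the threshold in each fit with more than 1 KSFM-Ca2+ library. The number of members lower in the DKSFM cells, 1 for *Grhl2*, was 0 to 1 with a library left out. With a filter on every library, 11112 genes were tested and 1024 were higher by 2-fold, in place of 1628. Of the other epidermal factors 19 were higher and 1 lower, in place of 21 and 2, and higher were 6 relatives in place of 9, 6 p63 targets in place of 7 and 4 grainyhead targets in place of 6, since the genes at or near 0 in either line were then not tested, while 9 members were higher in place of 8. The number of relatives lower in the DKSFM cells was 2 to 5 with a library left out. In the combined libraries the *Elf1* log2 fold change reversed to 0.0071. The *Isl1* log2 fold change, 0.14 with all libraries, reversed to -0.10 without KSFM-Ca2+ replicate 3 and was 0.41 without KSFM-Ca2+ replicate 1. With the replicate number as a block, 8743 genes were past the threshold in place of 9004, and 7 members were higher in place of 8, *Trp63* being no longer past it (adjusted p = 0.0213, within 0.00465 to 0.0316 over all alternatives). Same-numbered libraries did not deviate together (correlations of -0.01, 0.02 and -0.01), so the numbers were not taken as pairs. The rounding step of 0.1 limits what can be said of genes near 0.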
